A study of Homo sapiens with 24 samples.

Results

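The comparison was between 3 doxycycline arrays and 3 mock arrays of BJ-hTERT cells, 6 of the 24 arrays of the series, chosen by their labels as the BJ-hTERT samples taken at 24 h. BJ-hTERT is a human foreskin fibroblast line immortalised with telomerase. The cells of all 6 samples carry a gene for HA-tagged YWHAE-NUTM2, whose expression doxycycline turns on. They had been seeded 24 h before the treatment, and the mock samples received water, the vehicle, in place of doxycycline. A gene's value is the mean log2 intensity of the probe sets that name it alone. Other pairs of groups serve for comparison, BJ-hTERT doxycycline and mock at 72 h and HEK293 doxycycline and mock at 24 h, each with 3 arrays per group. HEK293 is an embryonic kidney line, here carrying the same inducible gene. No doxycycline-treated cells without the fusion gene are among the arrays used here, so an effect of doxycycline and an effect of the fusion cannot be told apart. The labels do not say whether a line is 1 clone or whether replicates are separate cultures, and the p-values measure the spread between arrays, which may be technical.

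YWHAE encodes 14-3-3 epsilon, an adaptor protein that binds phosphorylated partners and holds many of them in the cytoplasm. Its fusion to a NUTM2 gene by a chromosomal translocation is found in high-grade endometrial stromal sarcoma and in some clear cell sarcomas of the kidney. Cultured fibroblasts divide until serum, space or a checkpoint stops them. Genes for DNA replication are switched on by E2F factors as a cell passes from G1 into S phase, and genes for mitosis are switched on later by the MuvB complex with B-MYB (MYBL2) and FOXM1. When cells leave the cycle, the retinoblastoma family and the repressive form of MuvB hold both groups down.

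The induced gene was read through probe sets that name NUTM2 genes. Of 34 distinct NUTM2 probe sets, 14 were called higher with doxycycline and 0 were called lower by limma, at an adjusted p under 0.05 over all 352859 probe sets, where 0.208% of all probe sets were called higher. The mean level of these 14 probe sets was 4.77, 4.93 and 5.02 log2 on the mock arrays and 8.46, 8.46 and 8.84 on the doxycycline arrays. These 14 were chosen by this contrast, so the gap between their groups follows from the choice. Over all 34 the mean level was 4.61, 4.47 and 4.59 log2 on the mock arrays and 5.82, 5.91 and 6.18 on the doxycycline arrays, and the groups did not overlap. Of the 20 probe sets that were not called, 15 had a change below 0 and 5 above it, from -2.004 to 2.93 log2. The probe set with the largest change read 2.18, 1.41 and 2.98 in mock and 7.13, 7.81 and 8.33 with doxycycline. The 14 changes ran from 2.07 to 5.57 log2 with a median of 3.62. Of the 14, 10 name several near-identical NUTM2 genes, so which paralog was read cannot be told. With a replicate block 7 of the 14 were called, and 0 in a fit of the 6 arrays alone. Among genes, NUTM2B rose by 1.90 ± 0.29 log2 (SE of the limma contrast, n = 3 arrays per group, as for every ± below; adjusted p = 0.000159) and NUTM2A by 1.80 ± 0.39 (0.00388). These gene values average few probe sets that did not all move alike. Those of NUTM2B changed by 4.09, 3.01 and -1.41 log2, and those of NUTM2A by 3.04, 2.57 and -0.19. YWHAE was not analysed here, since no probe set used is named for it.

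**Figure D1:**
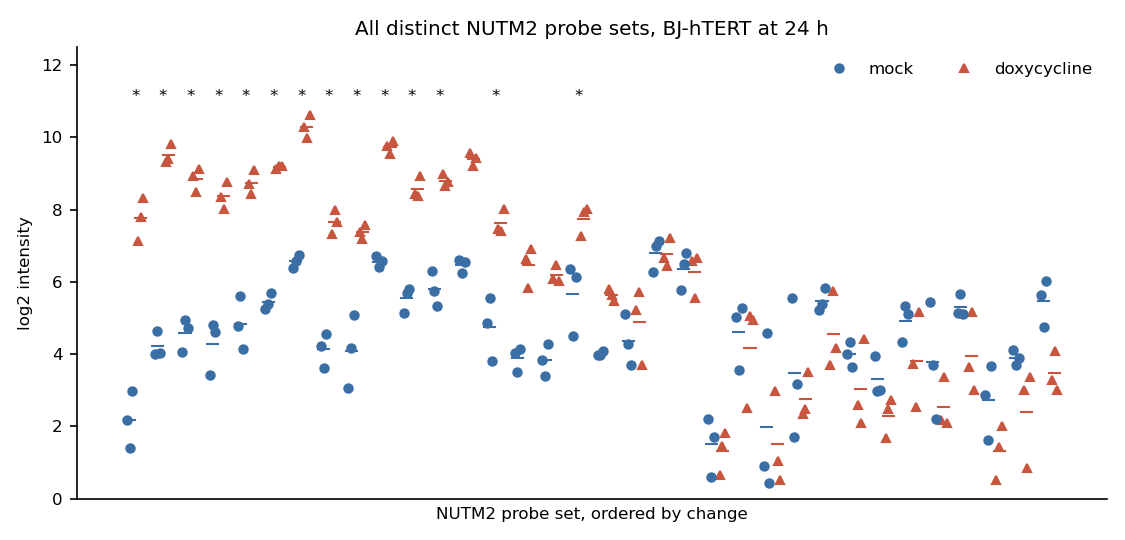
Level (log2 intensity) of the 34 distinct NUTM2 probe sets on each of the 6 arrays, ordered by change from the most positive to the most negative, where circles are mock arrays, triangles are doxycycline arrays, short lines are group means and asterisks mark the 14 called higher. The 15 probe sets with a change below 0 lie at the right, and none of them was called.

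The fibroblast label was checked against markers. All 16 fibroblast markers tested (among them COL1A1, FN1, THY1 and PDGFRB) had a higher mean level in mock BJ-hTERT than in mock HEK293 cells, by a median of 3.48 log2. None of the 16 was called with doxycycline, and their mean level was 7.99 to 8.14 log2 on the mock arrays and 8.10 to 8.16 on the doxycycline arrays. Of the markers of other cells, 3 of 10 keratinocyte, 3 of 7 melanocyte, 5 of 8 endothelial, 2 of 8 leukocyte and 8 of 8 smooth muscle and pericyte and 10 of 12 kidney epithelial and HEK293-related markers were tested, and limma called 0 of them. A gene was tested if it reached the filter value in any of the 8 groups. In mock BJ-hTERT cells at 24 h only 1 keratinocyte, 2 melanocyte, 2 endothelial, 1 leukocyte, 7 smooth muscle and 8 kidney markers reached it, against 16 fibroblast markers. By unadjusted p under 0.05, 1 fibroblast, 1 endothelial, 2 smooth muscle and 2 kidney markers passed. In single alternatives up to 1 melanocyte and 1 endothelial marker were called lower, and up to 2 smooth muscle and 1 kidney marker higher. Leukocyte markers, near the bottom of the scale, read 2.58 to 2.60 log2 in mock and 2.69 to 2.91 with doxycycline, while the ranges of the other lists overlapped; their part in the results was not tested. Arrays of the same group correlated at r = 0.975 to 0.979 across genes and doxycycline arrays with mock arrays at 0.964 to 0.969. Array medians lay between 4.75 and 4.80 log2. Between arrays of a group a typical gene varied with an SD of 0.236 log2.

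Over 17329 genes tested, limma called 774 higher with doxycycline (4.47%) and 760 lower (4.39%), or 8.85% either way. A call needed an adjusted p under 0.05 and no set fold. The median change over all genes was 0.02 log2. Falls were larger than rises: 223 called genes fell at least 2-fold and 103 rose at least 2-fold, and the median called fall was -0.81 log2 against a median called rise of 0.65. Unadjusted p was under 0.05 for 3673 genes, against 866 expected by chance. All 3 doxycycline arrays lay below all 3 mock arrays for 11.3% of the genes tested and above them for 14.4%. Of 1111 called genes with at least 10 distinct probe sets, the median gene had 90% of its probe sets moving its own way. These genes were called on the mean of the same probe sets, so agreement follows in part from the choice. Another 88 called genes rest on 1 or 2 distinct probe sets and 87 have a lower group mean below the filter value of 2.83 log2, which makes the size of their change uncertain. A fit of these 6 arrays alone called 278 higher and 419 lower. Taking each gene's median probe set in place of the mean gave 393 and 523.

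Among the lists used here, those of the cell division cycle held the most falls. The 15 cell cycle lists held 330 genes tested, of which 234 fell (70.9%, against 4.39% of all genes), 1 rose and 95 were not called. Their median change was -0.88 log2, against 0.02 for all genes. They were 30.8% of all called falls and 57.8% of the falls of at least 2-fold. The fall covered replication, histones, mitotic kinases, kinetochores and the spindle, while few G1 cyclins and inhibitors of cyclin-dependent kinases were called. These are levels in bulk RNA, so fewer cycling cells and less RNA of these genes in each cell cannot be told apart.

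**Figure D2:**
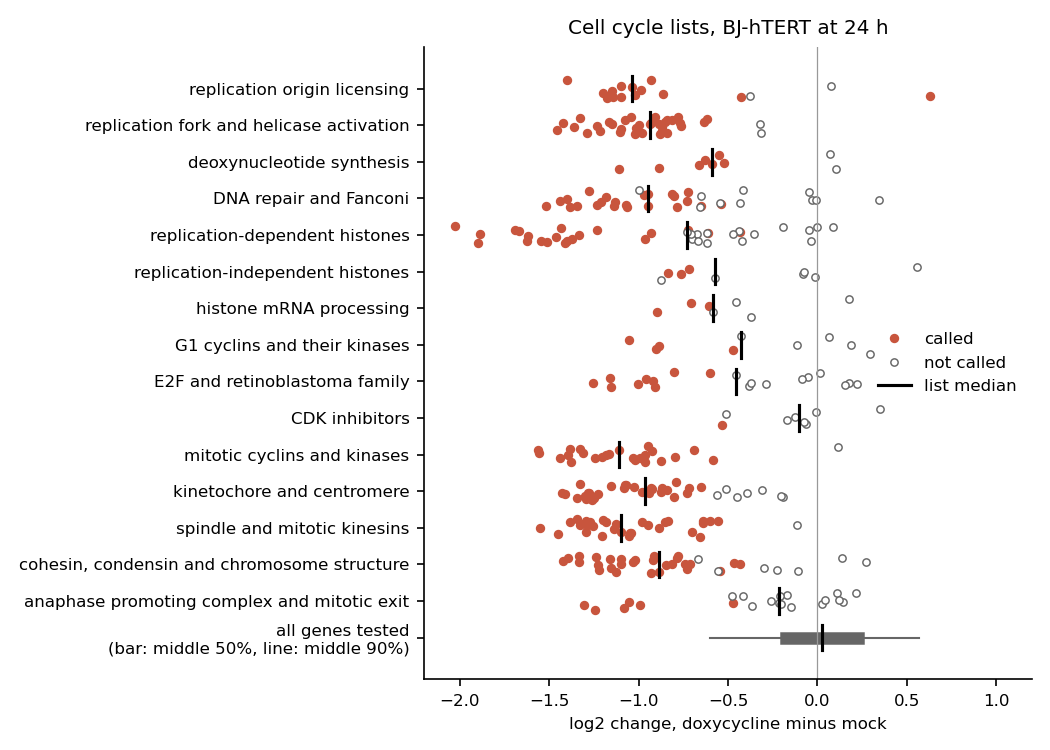
Change of each gene (log2, doxycycline minus mock) in the 15 cell cycle lists. Filled points are called genes, open points are genes not called, black bars are list medians, and the bottom row gives the same over all 17329 genes tested, with a thick bar over the middle 50% and a line over the middle 90%. Medians of the replication and mitosis lists lie near -1, and those of CDK inhibitors and of the anaphase promoting complex lie nearer 0.

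Replication begins when the origin recognition complex, CDC6 and CDT1 load the MCM helicase onto DNA. Of 17 licensing genes 14 fell, 1 rose and 2 were not called, with a list median of -1.04 log2. The mean level of the list was 7.56, 7.57 and 7.42 log2 in mock and 6.67, 6.67 and 6.67 with doxycycline. All 6 subunits of the MCM2-7 helicase fell. MCM3 read 8.41, 8.47 and 8.26 in mock and 7.28, 7.16 and 7.27 with doxycycline, a fall of 1.14 ± 0.09 on the log2 scale (2.21-fold, adjusted p = 7.27e-08). MCM7 fell by 1.18 ± 0.12, MCM2 by 1.16 ± 0.12, MCM5 by 1.02 ± 0.14, MCM6 by 0.93 ± 0.11 and MCM4 by 0.87 ± 0.12. The loader CDT1 fell most, from 6.89, 6.55 and 6.90 to 5.27, 5.50 and 5.36 (-1.40 ± 0.19, adjusted p = 3.19e-05), and its inhibitor GMNN (geminin) fell too (-1.10 ± 0.14). ORC1, the recognition subunit made anew in each cycle, fell by 1.10 ± 0.13. ORC4, another subunit of the same complex, was the only cell cycle list member that rose, from 6.45, 6.15 and 6.20 to 7.06, 6.67 and 6.96 (0.63 ± 0.14, adjusted p = 0.00552), and it lost its call with only these 6 arrays or with the median of probe sets.

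At the fork the change was as broad. Of 35 fork and helicase activation genes 33 fell and 2 were not called, with a median of -0.94. WDHD1 (AND-1), which links the helicase to DNA polymerase alpha, read 7.61, 7.52 and 7.65 in mock and 6.27, 6.08 and 6.07 with doxycycline, and its 26 probe sets all moved down by at least 0.5 log2. It fell by 1.46 ± 0.11 (2.74-fold, adjusted p = 7.27e-08). The helicase cofactors GINS2 and CDC45 fell by 1.33 ± 0.15 and 1.10 ± 0.15, and the polymerase subunits POLA1 and POLE by 0.84 ± 0.11 and 0.81 ± 0.12. PCNA, the sliding clamp, fell from 9.15, 8.94 and 9.23 to 8.02, 8.07 and 8.18. Chromatin assembly factor 1 places histones on new DNA. Its subunit CHAF1B stood at 7.59, 7.58 and 7.61 in mock and at 6.01, 6.06 and 6.44 with doxycycline (-1.42 ± 0.14), and CHAF1A fell by 1.29 ± 0.14. ATAD5, which unloads PCNA, fell by 1.49 ± 0.18.

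Enzymes that make deoxynucleotides fell less. Of 9 such genes 7 fell, with a median of -0.59. Thymidylate synthase TYMS fell from 9.54, 9.65 and 9.38 to 8.44, 8.37 and 8.44 (-1.11 ± 0.11), while the ribonucleotide reductase subunits RRM1 and RRM2 fell by 0.55 ± 0.13 and 0.52 ± 0.13 and thymidine kinase TK1 by 0.63 ± 0.12. A fit of the 6 arrays alone called 2 of them lower, and leaving out 1 array called 4 at the fewest. Of the 33 DNA repair and Fanconi genes 23 fell and 10 were not called. FANCA, of the Fanconi core complex that acts on crosslinked DNA, read 7.17, 6.86 and 7.11 in mock and 5.45, 5.64 and 5.51 with doxycycline (-1.52 ± 0.12, 2.86-fold), with all 40 probe sets lower. BRCA1 and BRCA2, which act in repair by homologous recombination, fell by 1.44 ± 0.13 and 1.35 ± 0.20. FANCD2 fell by 0.80 ± 0.12 and the polymerase POLQ, of an alternative end-joining pathway, by 1.40 ± 0.13.

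Replication-dependent histone genes are transcribed in S phase and make messages without a poly(A) tail. Of 58 in the list, 39 had probe sets of a single symbol and 37 were tested; 21 fell, 0 rose and 16 were not called, with a median of -0.73. HIST1H2AE (now H2AC8) read 8.56, 8.68 and 8.46 in mock and 6.86, 6.97 and 6.79 with doxycycline (-1.69 ± 0.11, 3.22-fold, adjusted p = 1e-08). The linker histone genes HIST1H1B (H1-5) and HIST1H1E (H1-4) fell by 1.46 ± 0.35 and 1.43 ± 0.12. These 3 genes rest on 3 probe sets each, and histone genes of a cluster are alike in sequence, so the share of each paralog in a value is uncertain. SLBP, which binds the stem loop at the end of these messages, fell by 0.61 ± 0.14 and lost its call with only these 6 arrays. Of the 9 replication-independent histone genes 3 fell, and 0 with only these 6 arrays.

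Among G1 regulators the change was uneven. Of 9 G1 cyclins and their kinases 4 fell and 5 were not called. A fit of the 6 arrays alone called 2 lower, and so did the median of probe sets. CCND1, CCND2, CCND3 and CDK6, which with CDK4 start the phosphorylation of the retinoblastoma protein, were not called. Their changes were -0.11 ± 0.14, 0.29 ± 0.23, 0.18 ± 0.16 and 0.07 ± 0.15. CCND1 read 8.90, 8.87 and 8.66 in mock and 8.74, 8.63 and 8.72 with doxycycline, and the groups overlapped. The kinases CDK2 and CDK4 fell by 0.89 ± 0.14 and 0.47 ± 0.11, the cyclin CCNE2 by 0.90 ± 0.18 and the phosphatase CDC25A, which frees CDK2, by 1.06 ± 0.10. The call of CDK4 was lost in 3 alternatives and those of CDK2 and CCNE2 in 1 each. CCNE1 was not called (-0.43 ± 0.15, adjusted p = 0.0781). Of 19 E2F and retinoblastoma family genes 9 fell and 10 were not called. The activators E2F1 and E2F2 fell by 1.15 ± 0.20 and 1.26 ± 0.23, and the later repressors E2F7 and E2F8 by 0.96 ± 0.14 and 1.16 ± 0.14. Among the retinoblastoma relatives, RBL1 (p107) fell by 1.01 ± 0.13, whereas RB1 and RBL2 (p130) were not called (-0.05 ± 0.13 and -0.08 ± 0.20). MYBL1, a close relative of B-MYB, stood at 8.96, 8.78 and 8.73 in mock and 7.62, 7.52 and 7.08 with doxycycline (-1.42 ± 0.15, 17 of 17 probe sets lower by at least 0.5). MYBL2 and FOXM1 fell by 0.80 ± 0.12 and 0.92 ± 0.16, and the MuvB subunit LIN9 by 0.91 ± 0.14.

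Of 8 inhibitors of cyclin-dependent kinases tested, limma called 0 higher and 2 passed unadjusted p under 0.05 in either direction. The 1 called, CDKN2D, was lower (-0.54 ± 0.16), a call lost in 10 of 17 alternatives. CDKN1A (p21) read 5.93, 5.56 and 5.94 in mock and 5.57, 5.63 and 5.87 with doxycycline, which overlap (-0.12 ± 0.24, adjusted p = 0.835). CDKN1B (p27), CDKN2A and CDKN2B had values of -0.06 ± 0.14, -0.17 ± 0.24 and -0.08 ± 0.22, and CDKN1C (p57), whose mock mean lies below the filter value, by 0.35 ± 0.19. Of 27 targets of p53, 1 rose (3.7%, against 4.47% of all genes) and 4 fell (14.8%, against 4.39%). TP53INP1 rose from 4.08, 3.82 and 4.15 to 5.12, 5.09 and 5.12 (1.09 ± 0.19), while the death effector BAX fell by 0.55 ± 0.12, the repair protein DDB2 by 0.57 ± 0.15, the nuclease AEN by 0.60 ± 0.16 and SESN2 by 0.50 ± 0.14. A fit of the 6 arrays alone called none of these 4 falls. Of 17 secreted factors of senescent cells, 0 rose and TNFRSF11B (osteoprotegerin) fell by 1.38 ± 0.26.

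Of 25 mitotic cyclins and kinases 24 fell, and MAD1L1 alone was not called (0.11 ± 0.14). The list median was -1.11 log2, and the mean level of the list was 7.76, 7.75 and 7.62 in mock against 6.54, 6.72 and 6.64 with doxycycline. CCNF (cyclin F), which directs S and G2 proteins to degradation, fell from 7.51, 7.57 and 7.23 to 5.79, 5.84 and 6.02 (-1.56 ± 0.15, 2.94-fold, adjusted p = 7.42e-07). The spindle checkpoint kinase BUB1B (BUBR1) read 8.54, 8.64 and 8.40 in mock and 7.01, 7.30 and 7.13 with doxycycline (-1.38 ± 0.10, 2.60-fold, adjusted p = 3.35e-08). CCNA2 (cyclin A2) read 10.09, 10.08 and 9.91 against 8.62, 8.82 and 8.91 (-1.24 ± 0.10), and PLK1, the kinase of mitotic entry, 10.09, 10.09 and 10.02 against 8.87, 8.91 and 8.92 (-1.17 ± 0.09). In none of these did a doxycycline array reach a mock array. The cyclins CCNB1 and CCNB2 fell by 1.03 ± 0.12 and 0.99 ± 0.10, and CDK1 by 1.33 ± 0.19. AURKB fell by 1.40 ± 0.12 and the checkpoint kinase TTK (MPS1) by 1.44 ± 0.16. BORA, which activates Aurora A, fell by 1.48 ± 0.19. AURKA itself fell by 0.80 ± 0.23 and lost its call in 8 of 17 alternatives.

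The promoters of 4 of these genes are printed because their letters hold the elements through which cell cycle promoters are known to be read. They were the 4 with the smallest p among licensing, mitotic kinase and spindle genes whose promoter held a searched motif and may be printed. Each is 300 bases long and ends shortly after the annotated start, 5′ to 3′ on the gene's strand, from RefSeq on GRCh38.p14. The searched motifs on both strands were CCAAT (the NF-Y box), TTTGAA (the core of the cell cycle genes homology region, CHR, bound by MuvB) and GCGGGAA (an E2F site), and matches are in capitals. An AP-1 site (TGANTCA), a TEAD core (GGAATG) and a GLI core (GGGTGGTC) were searched too and are in none of the 4 windows. Searched motifs do not overlap each other in these windows. Positions count from the start, with -1 as the base before it.
BUB1B: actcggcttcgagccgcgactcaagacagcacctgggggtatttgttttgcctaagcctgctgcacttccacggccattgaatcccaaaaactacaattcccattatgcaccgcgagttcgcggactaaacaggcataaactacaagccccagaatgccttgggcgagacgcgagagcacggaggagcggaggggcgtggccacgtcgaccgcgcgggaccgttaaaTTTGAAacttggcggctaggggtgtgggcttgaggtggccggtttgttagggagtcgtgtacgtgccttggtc
MCM3: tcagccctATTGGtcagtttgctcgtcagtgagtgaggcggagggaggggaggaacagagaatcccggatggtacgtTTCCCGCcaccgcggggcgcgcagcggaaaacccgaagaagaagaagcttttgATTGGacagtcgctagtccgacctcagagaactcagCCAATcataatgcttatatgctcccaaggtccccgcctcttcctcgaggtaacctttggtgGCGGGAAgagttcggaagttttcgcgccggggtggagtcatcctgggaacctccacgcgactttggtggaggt
PLK1: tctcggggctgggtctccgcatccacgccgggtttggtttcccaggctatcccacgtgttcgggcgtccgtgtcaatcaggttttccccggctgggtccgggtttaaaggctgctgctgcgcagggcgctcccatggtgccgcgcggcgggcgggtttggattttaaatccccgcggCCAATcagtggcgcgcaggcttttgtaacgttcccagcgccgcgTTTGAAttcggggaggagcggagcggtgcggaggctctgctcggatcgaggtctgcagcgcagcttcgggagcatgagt
CCNA2: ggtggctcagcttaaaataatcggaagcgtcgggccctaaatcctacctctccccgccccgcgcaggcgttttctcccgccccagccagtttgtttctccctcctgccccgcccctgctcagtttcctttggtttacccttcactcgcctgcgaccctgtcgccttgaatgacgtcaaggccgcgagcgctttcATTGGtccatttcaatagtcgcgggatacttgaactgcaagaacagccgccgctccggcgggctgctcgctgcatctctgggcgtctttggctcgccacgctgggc
The BUB1B window lies at chr15:40160819-40161118 on the + strand and holds 1 CHR core, at -23 to -18. The MCM3 window lies at chr6:52284693-52284992 on the - strand and holds CCAAT boxes starting at -242, -120 and -84 and E2F cores starting at -173 and -23. PLK1 (chr16:23678639-23678938, + strand) holds a CCAAT box at -73 and a CHR core at -29. CCNA2 (chr4:121823834-121824133, - strand) holds a CCAAT box at -56 and no exact copy of the other searched cores.

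Over promoters of 12803 tested genes, the CHR core stood in 10.2% and the E2F core in 9.54%. The spindle list had the CHR core in 23 of 30 promoters (76.7%), and the mitotic cyclin and kinase list in 50%. The licensing list had it in 0 of 15 promoters. The E2F core stood in 46.7% of fork promoters, 46.7% of DNA repair promoters and 6.67% of spindle promoters. Both a CCAAT box and a CHR core stood in 66.7% of spindle promoters against 4.12% of all tested. Among all genes called lower the CHR core stood in 24.8% and the E2F core in 20.4%, and among genes called higher in 7.48% and 7.48%. CCAAT boxes stood in 94.3% of the histone promoters and 36.0% of all tested. The AP-1 site stood in 5.17% of all tested promoters, the TEAD core in 11.3% and the GLI core in 1.06%. A match says only that these letters are in the window.

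Kinetochores and the spindle carry chromosomes through mitosis. Of 36 kinetochore and centromere genes 29 fell and 7 were not called. CENPI fell from 8.32, 8.37 and 8.25 to 6.66, 6.95 and 7.05 (-1.43 ± 0.13), with all 20 probe sets lower by at least 0.5 log2. The microtubule-binding NDC80 fell by 1.26 ± 0.14, CASC5 (now KNL1) by 1.28 ± 0.14 and the kinesin CENPE by 1.28 ± 0.12. CENPA, the histone variant of the centromere, fell by 0.72 ± 0.22, but its groups overlapped (4.93, 5.91 and 5.84 against 4.68, 4.69 and 5.17) and its call was lost in 8 of 17 alternatives. Of 31 spindle genes 30 fell, and NUMA1 was not called (-0.11 ± 0.14). KIF18B, a kinesin that shortens astral microtubules, fell from 7.61, 7.69 and 7.43 to 5.83, 6.30 and 5.93 (-1.55 ± 0.14, 2.94-fold), and KIF18A by 1.45 ± 0.12. KIF11, the motor that pushes the poles apart, fell by 1.33 ± 0.12.

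Of 35 genes for cohesin, condensin and chromosome structure 28 fell. NCAPG, of condensin, fell by 1.23 ± 0.11, TOP2A, which untangles sister chromatids, from 10.47, 10.47 and 10.28 to 9.12, 9.28 and 9.16 (-1.22 ± 0.11), and CDCA8 (borealin) by 1.41 ± 0.11. LMNB1, encoding lamin B1 of the nuclear envelope, fell by 1.10 ± 0.11, and MKI67, the proliferation antigen Ki-67, by 1.24 ± 0.13. Of 21 genes of the anaphase promoting complex and mitotic exit only 6 fell, among them the activator CDC20 (-1.24 ± 0.15) and the ubiquitin-conjugating enzyme UBE2C (-1.31 ± 0.15). The other 15 were not called and the list median was -0.21.

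**Figure D3:**
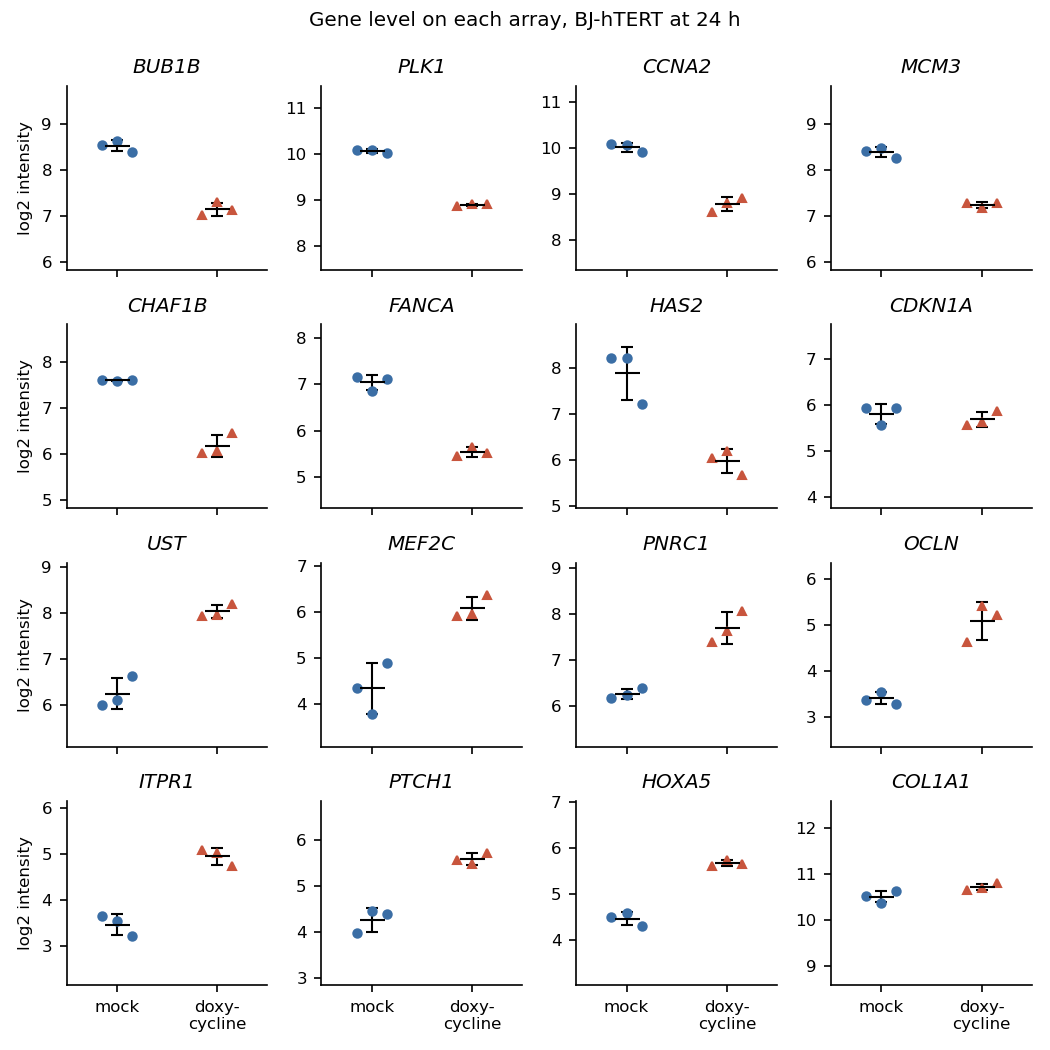
Level (log2 intensity) of 16 genes on each array, with circles for mock, triangles for doxycycline, and black bars for the group mean with 1 SD (n = 3). All panels span the same range of log2 units, and levels are not comparable between genes. The first 7 genes fell, CDKN1A and COL1A1 were not called, and the other 7 rose.

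FOXO factors drive genes of resting cells. Of 28 FOXO target and quiescence genes 8 rose (28.6%, against 4.47% of all genes), 0 fell and 20 were not called, with a list median of 0.32 log2. The list mean was 5.20, 5.20 and 5.16 in mock and 5.54, 5.56 and 5.63 with doxycycline. PNRC1, a nuclear receptor coactivator, read 6.16, 6.22 and 6.38 in mock and 7.38, 7.61 and 8.06 with doxycycline (1.43 ± 0.15, 2.70-fold). TCP11L2 rose from 3.61, 3.79 and 3.52 to 5.59, 5.49 and 5.06 (1.74 ± 0.19). KLF9, a zinc finger repressor, rose by 1.24 ± 0.18, FOXO1 itself by 1.14 ± 0.21, YPEL2 by 1.06 ± 0.18, the pseudokinase TRIB1 by 0.97 ± 0.15, the repressor BCL6 by 0.87 ± 0.20 and catalase (CAT) by 0.52 ± 0.15. The call of CAT was lost in 7 of 17 alternatives.

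Outside NUTM2, the largest rise among genes with at least 3 probe sets and both groups above the filter value was UST, a sulfotransferase that modifies chondroitin and dermatan sulfate. It read 6.00, 6.13 and 6.63 in mock and 7.95, 7.97 and 8.20 with doxycycline (1.79 ± 0.14, 3.46-fold, adjusted p = 7.27e-08), with 10 of 10 probe sets higher by at least 0.5 log2. FAM65B (now RIPOR2), an inhibitor of RhoA, rose by 1.77 ± 0.24 and ABCB4, a phospholipid transporter, by 1.73 ± 0.23. KLHL24, a ubiquitin ligase adaptor, rose by 1.57 ± 0.17 with 12 of 12 probe sets higher by at least 0.5. FAXDC2 rose by 1.70 ± 0.22 and SLC9A9, a sodium and proton exchanger of endosomes, by 1.60 ± 0.18. ITPR1, a calcium channel of the endoplasmic reticulum with 47 probe sets, rose from 3.65, 3.54 and 3.20 to 5.09, 5.01 and 4.74 (1.49 ± 0.13, adjusted p = 1.74e-07). LRRC49 rose by 1.44 ± 0.14 and NDRG1, a growth arrest and hypoxia gene, by 1.42 ± 0.16. The clock repressor BHLHE41 rose by 1.40 ± 0.24. PTGES, the last enzyme of prostaglandin E2 synthesis, rose by 1.43 ± 0.35 and STON1 by 1.49 ± 0.44, and these calls were lost in 4 and 8 of 17 alternatives.

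The class IIa histone deacetylases are partners of 14-3-3 proteins, which keep them away from MEF2 factors in the nucleus. Of 7 HDAC and MEF2 genes tested 4 rose (57.1%, against 4.47% of all genes), 0 fell and the median was 0.44. A fit of the 6 arrays alone called 3 higher, and the median of probe sets 2. MEF2C rose from 4.36, 3.79 and 4.89 to 5.92, 5.96 and 6.36 (1.74 ± 0.20, 3.33-fold), and the groups lay well apart. HDAC5 rose by 1.01 ± 0.21, HDAC9 by 0.92 ± 0.19 and MEF2D by 0.44 ± 0.13, the last lost in 11 of 17 alternatives. Of 6 genes of the 14-3-3 family limma called 0, and 1 passed unadjusted p under 0.05.

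In growth factor signalling most genes were not called. The list of ERK feedback and ETS genes, which also holds the receptors EPHA4 and EPHA2, had 4 rises (17.4%, against 4.47% of all genes) and 1 fall (4.35%, against 4.39%) of 23. A fit of the 6 arrays alone called 3 higher and 0 lower, and the median of probe sets 2 higher and 0 lower. The ERK inhibitor SPRY1 (0.92 ± 0.14), the receptor EPHA4 (0.91 ± 0.14), the ETS factor ETV4 (0.82 ± 0.13) and the phosphatase DUSP6 (0.62 ± 0.19, lost in 13 of 17 alternatives) rose. The receptor EPHA2 fell (-0.65 ± 0.14). Immediate early genes also had 4 rises (17.4%) and 1 fall (4.35%) of 23. NR4A3, an orphan nuclear receptor, rose by 1.17 ± 0.15, and ATF3, a stress factor, rose from 2.52, 2.57 and 2.72 to 4.90, 3.81 and 4.17 (1.69 ± 0.28). Both have mock means below the filter value, so their sizes are uncertain. MAFF and NR4A1 rose by 1.01 ± 0.26 and 0.85 ± 0.22, calls lost in 6 and 4 of 17 alternatives. FOSL1 (FRA-1), a subunit of AP-1, fell from a mean of 8.82 (SD 0.21, n = 3) to 7.69 (SD 0.13, n = 3), with no overlap (-1.13 ± 0.17). FOS, EGR1 and JUN were not called (0.63 ± 0.26, 0.04 ± 0.17 and 0.09 ± 0.10).

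Among ligands, HBEGF, which binds the EGF receptor, rose (0.78 ± 0.16), and NRG1, which binds ERBB3 and ERBB4, fell from 6.67, 6.73 and 6.72 to 5.63, 5.92 and 5.69 (-0.96 ± 0.16). GAS6, the ligand of AXL, fell by 0.60 ± 0.12, and VEGFC by 0.62 ± 0.18 with its call lost in 9 of 17 alternatives. In the list of receptor tyrosine kinases and neurotrophin receptors, 0 of 25 genes rose and MET fell (-0.42 ± 0.13, lost in 13). The receptors EPHA4, which rose, and EPHA2, which fell, were counted with the ERK feedback and ETS genes instead. In the BMP and TGF-beta group the activin inhibitor FST (follistatin) fell by 0.95 ± 0.19, the activin subunit INHBA by 1.15 ± 0.33 (lost in 8) and BMPR2, a BMP receptor, rose by 0.43 ± 0.11. In the JAK-STAT group 5 of 18 rose (27.8%, against 4.47% of all genes) and 0 fell. LIFR, the receptor of leukaemia inhibitory factor, rose by 0.65 ± 0.13, and SOCS2, a feedback inhibitor, by 0.61 ± 0.16. STAT2, IL6R and IL6ST (gp130) rose by 0.57 ± 0.15, 0.81 ± 0.25 and 0.35 ± 0.11, and all but LIFR lost their calls in at least 5 of 17 alternatives. A fit of the 6 arrays alone called 0 of the 18 higher.

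PTCH1, both the receptor and a target of Hedgehog signalling, rose from 3.97, 4.45 and 4.38 to 5.56, 5.46 and 5.72 (1.31 ± 0.16, 2.49-fold). It was the 1 gene called of the 13 Hedgehog genes tested (7.69% higher, against 4.47% of all genes). GLI1, another target of that pathway, read 2.99, 3.55 and 3.77 in mock and 3.61, 3.32 and 3.68 with doxycycline, which overlap (0.10 ± 0.19). In the Notch group 1 of 21 genes rose (4.76%, against 4.47% of all genes) and 1 fell (4.76%, against 4.39%), shares close to those of all genes. The ligand JAG1 rose by 0.94 ± 0.15, and the receptor NOTCH1 fell by 0.70 ± 0.20 with its call lost in 8 of 17 alternatives. Of 31 WNT pathway genes 2 rose (6.45%, against 4.47% of all genes) and 1 fell (3.23%, against 4.39%). The co-receptor LRP6 was among the rises (0.63 ± 0.11). With the median of probe sets 0 of the 31 were called.

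Genes of the matrix, adhesion and movement had 28 rises (8.51%, against 4.47% of all genes) and 15 falls (4.56%, against 4.39%) among 329 tested. The share of falls was thus close to that of all genes. HAS2, the main hyaluronan synthase of fibroblasts, fell most, from 8.21, 8.22 and 7.22 to 6.04, 6.19 and 5.69 (-1.91 ± 0.31, 3.76-fold, adjusted p = 0.000233). The hyaluronan receptor HMMR, a mitotic spindle protein as well, fell by 1.05 ± 0.16, and the hyaluronidase TMEM2 (now CEMIP2) rose by 0.51 ± 0.10. Of 37 collagen genes and their enzymes 3 rose (8.11%) and 0 fell. The 3 were the prolyl hydroxylase P4HA1 (0.66 ± 0.11), the crosslinking enzyme LOX (0.66 ± 0.16) and COL11A1 (0.65 ± 0.16), while COL1A1 was not called (0.21 ± 0.13). LAMA2, a laminin chain, rose by 0.54 ± 0.13 and the glycoprotein TNC (tenascin C) fell by 0.54 ± 0.14. ESM1 (endocan), a secreted proteoglycan, fell from 6.21, 5.98 and 6.08 to 4.73, 4.62 and 4.55 (-1.46 ± 0.20). The calls of COL11A1 and TNC were lost in 4 and 6 of 17 alternatives.

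At the cell surface ITGA11, a collagen-binding integrin, rose from 5.89, 5.48 and 5.89 to 6.76, 6.80 and 6.72 (1.00 ± 0.15), and ITGB8, whose mock mean lies below the filter value, by 1.31 ± 0.17. Vinculin (VCL) rose by 0.53 ± 0.13, lost in 5 of 17 alternatives, and the actin crosslinker FLNC (filamin C) rose from 9.81, 9.96 and 9.75 to 10.81, 10.76 and 10.69 (0.91 ± 0.14). MYLK, the myosin light chain kinase, fell by 0.75 ± 0.15. OCLN (occludin), a tight junction protein, rose from 3.38, 3.55 and 3.30 to 4.63, 5.42 and 5.23 (1.69 ± 0.19), and JUP (plakoglobin), of desmosomes and adherens junctions, by 1.11 ± 0.19. Among factors of epithelial to mesenchymal transition, TWIST1 rose from 4.23, 4.28 and 4.56 to 5.49, 6.18 and 5.99 (1.53 ± 0.32) and FOXC1 by 0.62 ± 0.12, while SNAI2 (Slug) fell by 0.69 ± 0.18, lost in 4 of 17 alternatives. Of 27 targets of YAP and TEAD 1 rose (3.7%, against 4.47% of all genes) and 3 fell (11.1%, against 4.39%). CTGF (now CCN2) was higher (0.65 ± 0.17, lost in 6) and ANKRD1 lower (-1.35 ± 0.22). The coagulation starter F3 (tissue factor), of the same list, fell by 1.27 ± 0.23.

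**Figure D4:**
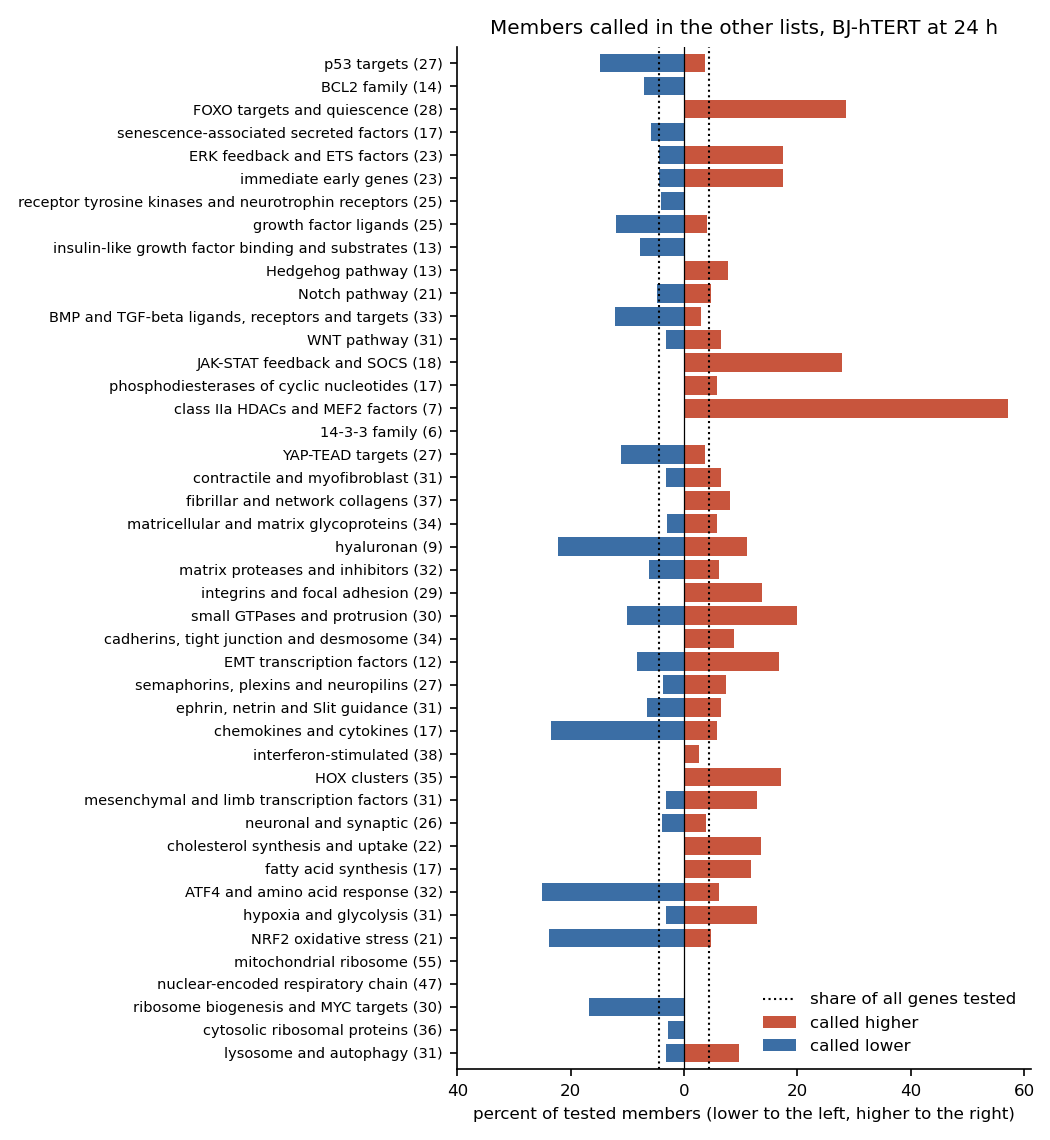
Share of the tested members of each list outside the cell cycle that were called lower (left, blue) or higher (right, red), with the number tested in brackets. Dotted lines mark the share of all genes tested, 4.39% lower and 4.47% higher. The class IIa HDAC and MEF2, FOXO and JAK-STAT lists have the longest bars to the right, and the mitochondrial lists have none.

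HOX genes record the position of a fibroblast along the body and limb. Of 35 tested, 6 rose (17.1%, against 4.47% of all genes) and 0 fell. HOXA5 rose from 4.51, 4.59 and 4.32 to 5.63, 5.75 and 5.66 (1.21 ± 0.15), HOXA11 by 1.37 ± 0.18, HOXA13 by 1.29 ± 0.19, HOXA10 by 0.82 ± 0.19, HOXA6 by 0.60 ± 0.17 and HOXD10 by 0.56 ± 0.12. The call of HOXA6 was lost in 9 of 17 alternatives, that of HOXD10 in 2 and that of HOXA10 in 1. A fit of the 6 arrays alone called 4 HOX genes higher, and the median of probe sets 3. TBX5, a factor of forelimb and heart, stood at 8.59, 8.42 and 8.56 in mock and 9.46, 9.44 and 9.46 with doxycycline (0.93 ± 0.13). OSR2, of limb joints and palate, rose by 0.83 ± 0.17 and its relative OSR1 fell by 0.68 ± 0.20, the latter lost in 9 of 17 alternatives.

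Of 17 chemokine and cytokine genes 4 fell (23.5%, against 4.39% of all genes), 1 rose (5.88%, against 4.47%) and 12 were not called. A fit of the 6 arrays alone called 3 lower and 0 higher, and the median of probe sets 1 lower and 0 higher. Among immune genes the chemokine CXCL12 fell from 6.55, 6.34 and 6.82 to 5.74, 5.71 and 5.74 (-0.84 ± 0.19), a call lost with the median of probe sets. TNFAIP3 (A20), an inhibitor of NF-kappaB, fell by 0.90 ± 0.19. PTGS2 (cyclooxygenase 2) fell by 0.68 ± 0.17, lost in 5 of 17 alternatives, while PTGES, which acts after it, rose. Of 38 interferon-stimulated genes 1 rose, STAT2 (2.63%, against 4.47% of all genes), and 0 fell. A fit of the 6 arrays alone called 2 of the 38 higher, and the median of probe sets 4.

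ATF4 is a transcription factor that drives genes of amino acid uptake and synthesis. Of 32 ATF4 and amino acid response genes 8 fell (25%, against 4.39% of all genes) and 2 rose (6.25%, against 4.47%), with a median of -0.33. In a fit of the 6 arrays alone 1 was called lower and 0 higher. The cystine importer SLC7A11 fell from 10.35, 10.40 and 9.50 to 9.24, 9.27 and 8.83 (-0.97 ± 0.21) and the cationic amino acid transporter SLC7A1 from 8.72, 8.64 and 8.55 to 7.89, 8.04 and 7.87 (-0.70 ± 0.14). The glutathione-degrading CHAC1 fell by 1.11 ± 0.26, the mitochondrial folate enzyme MTHFD2 by 0.68 ± 0.15 and the serine synthesis enzymes PSAT1 and PHGDH by 0.64 ± 0.13 and 0.40 ± 0.11. Of 30 genes in a list of ribosome biogenesis genes and MYC targets 5 fell (16.7%) and 0 rose. Among the 5 were the methyltransferase FBL (fibrillarin, -0.61 ± 0.11), its partner NOP58 (-0.57 ± 0.12) and CAD, of pyrimidine synthesis (-0.60 ± 0.13). PSAT1, SLC7A11, MTHFD2, CHAC1, PHGDH, FBL, NOP58 and CAD lost their calls in a fit of the 6 arrays alone. Of 21 genes of the NRF2 response 5 fell (23.8%, against 4.39% of all genes) and 1 rose (4.76%, against 4.47%). A fit of the 6 arrays alone called 1 of the 21 lower and 0 higher. The median of probe sets gave 2 lower and 1 higher. Of 55 mitochondrial ribosome genes and 47 respiratory chain genes limma called 0, with 7 and 5 at unadjusted p under 0.05 and medians of -0.01 and 0.06.

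The effect at 24 h was set beside that at 72 h in the same cells, from other arrays. At 72 h limma called 699 genes higher (4.03%) and 795 lower (4.59%). Of the genes called at 24 h, 328 were called higher and 434 lower at both times, 3 were called in opposite directions and 769 were not called at 72 h. The genes called the same way made up 49.7% of the calls at 24 h and 51.0% of those at 72 h. The median change of genes called higher at 24 h was 0.42 log2 at 72 h, and that of genes called lower was -0.57, where values of genes chosen for their size at 24 h tend to be smaller in other arrays. For cell cycle genes the median was -0.88 at 24 h and -0.71 at 72 h, and 230 of 330 had the smaller change at 72 h. BUB1B stood at a mean of 7.92 in mock and 7.05 with doxycycline at 72 h (-0.87 ± 0.10). CDK1, at -1.33 ± 0.19 at 24 h, was not called at 72 h (-0.43 ± 0.19). The change of HAS2 at 72 h was -2.74 ± 0.31 and that of CXCL12 -1.66 ± 0.19. By limma the difference between the times, 72 h minus 24 h, was not called for HAS2 (-0.83 ± 0.43, adjusted p = 0.609) or CXCL12 (-0.82 ± 0.27, adjusted p = 0.337).

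A test of the difference between the times called 1 gene of 17329 (0.00577%), with 1535 genes at unadjusted p under 0.05. That gene was TRO (trophinin), with 3.40, 3.66 and 3.43 in mock and 4.01, 4.25 and 4.35 with doxycycline at 24 h (0.71 ± 0.15) and the opposite change at 72 h (-0.62 ± 0.15), a difference of -1.33 ± 0.21 log2 (adjusted p = 0.0447). Its call was lost without any 1 of the 3 mock arrays at 24 h or without doxycycline replicate 3. GABRE, on 1 probe set and dim in a group, also changed sign (-2.42 ± 0.72 at 24 h, 2.53 ± 0.72 at 72 h), but the difference was not called (adjusted p = 0.104). It was chosen for mention after its values were seen. Of the 330 cell cycle genes 0 had a called difference between the times, and 54 passed unadjusted p under 0.05.

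HEK293 cells given doxycycline for the same time were the second comparison. There limma called 79 genes higher (0.456%) and 3 lower (0.0173%). Of the 330 cell cycle genes limma called 0 in HEK293, 19 passed unadjusted p under 0.05, and their median change there was 0.01 log2. In HEK293 the change of BUB1B was -0.02 ± 0.10, that of PLK1 -0.02 ± 0.09 and that of MCM3 0.12 ± 0.09. The difference between the lines was called for 821 genes (4.74%), 272 with a more positive effect in BJ-hTERT (1.57%) and 549 with a more negative one (3.17%). Among the cell cycle genes it was called for 195, all more negative in BJ-hTERT. NUTM2B, in contrast, rose by 2.16 ± 0.29 in HEK293 and 1.90 ± 0.29 in BJ-hTERT, a difference of -0.27 ± 0.41 that was not called (adjusted p = 0.81). Its value rests on 3 probe sets, which did not all move up in BJ-hTERT.

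Among the largest called differences toward BJ-hTERT were FAXDC2 (2.17 ± 0.31), MEF2C (1.82 ± 0.29), OCLN (1.81 ± 0.26), SLC16A4 (1.77 ± 0.31), PTGES (1.74 ± 0.49), TCP11L2 (1.72 ± 0.27), FAM65B (1.71 ± 0.34), UST (1.70 ± 0.20) and LPPR4 (now PLPPR4, 1.68 ± 0.28), each of which rose in BJ-hTERT and was not called in HEK293. HSPB3 differed by 1.93 ± 0.37, with a mock mean below the filter value. In the other direction stood 5 genes that rose in HEK293 and were not called in BJ-hTERT at 24 h: VSTM2B (-3.58 ± 0.35), NGFR (-1.97 ± 0.30), LRRTM1 (-1.95 ± 0.34), PCDH10 (-1.81 ± 0.18) and GABBR2 (-1.75 ± 0.24). HAS2 (-2.35 ± 0.43), MYBL1 (-1.80 ± 0.21), HIST1H1B (-1.74 ± 0.50), POLQ (-1.68 ± 0.19) and BORA (-1.67 ± 0.27) fell in BJ-hTERT and were not called in HEK293.

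Only 7 genes were called in both lines at 24 h, all of them higher. They were NUTM2B, HDAC5 (1.01 ± 0.21 in BJ-hTERT and 1.04 ± 0.21 in HEK293), ETV4 (0.82 ± 0.13 and 0.80 ± 0.13), SOCS2 (0.61 ± 0.16 and 0.73 ± 0.16), IGDCC3 (0.56 ± 0.17 and 1.01 ± 0.17), KLHL29 (0.50 ± 0.15 and 0.76 ± 0.15) and FSCN1, an actin bundler (0.42 ± 0.12 and 1.12 ± 0.12). The difference between the lines was called for FSCN1 alone (adjusted p = 0.0148). In BJ-hTERT the calls of SOCS2, FSCN1, IGDCC3 and KLHL29 were lost in 5 to 13 of 17 alternatives.

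**Figure D5:**
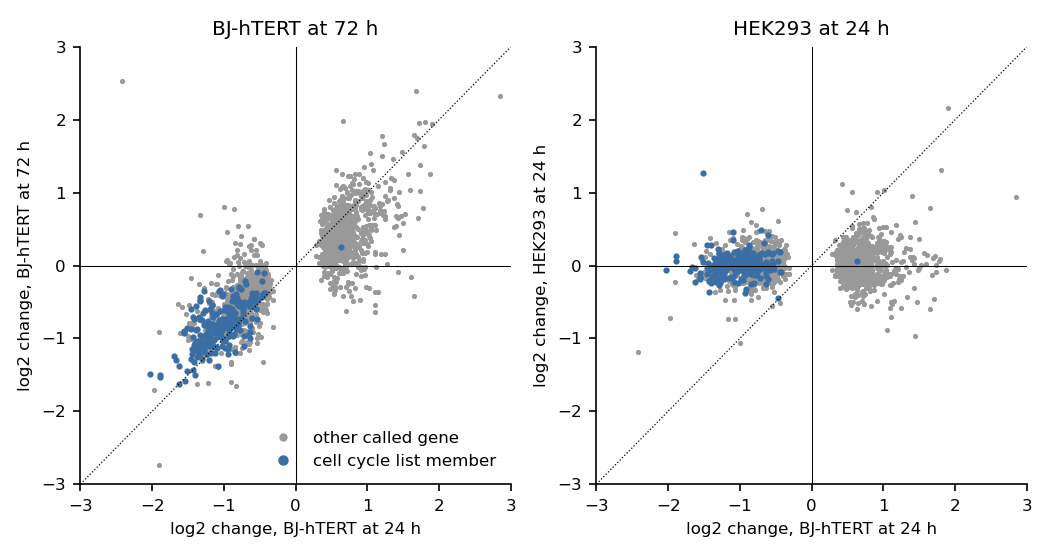
Change (log2, doxycycline minus mock) of the 1534 genes called in BJ-hTERT at 24 h, plotted against their change in BJ-hTERT at 72 h (left) and in HEK293 at 24 h (right). Blue points are members of the cell cycle lists, grey points are other genes, and dotted lines mark equal change. Genes were chosen by the values on the horizontal axis. Most cell cycle members lie below 0 at 72 h, and in HEK293 most lie around 0.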

How the data were processed

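The 24 samples were hybridised to Affymetrix Human Gene 2.1 ST arrays, which measure RNA. The values are the log2 intensities of 352859 probe sets that the authors deposited, normalized by RMA (robust multi-array average) before deposit, per the submitters' processing notes, which also name GCOS and Affymetrix Expression Console without versions. The tools oligo and limma stand in the design text. The genome build is not given in the sources used here. Probe sets were named through the platform's annotation: 257971 name 1 symbol, 17460 name several and 77428 name none. Array symbols were kept, and 1621 of them have been replaced since.

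Log2 values were averaged per gene over probe sets with 1 symbol, giving 25029 genes. Genes whose highest group mean lay below the 40th percentile of group means (2.83 log2) were left out, which removed 7700 and kept 17329. Means of the 8 groups of line, treatment and time were fitted to all 24 arrays with limma 3.58.1 (R 4.3.3, statmod 1.5.0, and the package data.table at version 1.17.8), with eBayes moderation, 16 residual degrees of freedom and Benjamini-Hochberg adjustment. Genes with an adjusted p under 0.05 were called, in limma's two-sided test. Differences between times and lines are contrasts of the same fit. Array number limits the precision: the median SE of a change was 0.189 log2. The fit was tested on simulated data.

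Genes named were drawn from the 20 largest rises and 20 largest falls with at least 3 distinct probe sets and arrays apart, the 6 lowest p-values of each list, list members needed to state what passed, the 10 largest differences each way between times and lines, and the 10 genes whose probe sets moved together most often. Some further list members were named after their values were seen. Small RNA genes, uncharacterised genes and pseudogenes were passed over. The comparison, the gene lists and the rules were chosen with earlier results of these data known. Genes without a probe set of a single symbol, YWHAE among them, were not analysed here. Alternatives were other arrays in the fit, a replicate block, other ways from probe set to gene, other filters and normalizations, another moderation and each array left out.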

Additional observations from a re-analysis of the deposited data

Results flagged for a closer look

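The doxycycline effect differed between BJ-hTERT and HEK293 at 24 h, by limma's test of the difference itself, for the 10 genes with the largest differences each way. More positive in BJ-hTERT were FAXDC2 (2.17 log2), HSPB3 (1.93), MEF2C (1.82), OCLN (1.81), SLC16A4 (1.77), PTGES (1.74), TCP11L2 (1.72), FAM65B (1.71), UST (1.70) and LPPR4 (1.68). More negative in BJ-hTERT were VSTM2B (-3.58), HAS2 (-2.35), NGFR (-1.97), LRRTM1 (-1.95), PCDH10 (-1.81), MYBL1 (-1.80), GABBR2 (-1.75), HIST1H1B (-1.74), POLQ (-1.68) and BORA (-1.67). Between 24 and 72 h in BJ-hTERT the effect differed for TRO, by -1.33 log2.

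Probe sets that entered no gene value also held differences at 24 h. Of 13571 distinct probe sets that name several symbols, 34 were called higher and 82 lower. Of 75824 that name no gene, 63 were called higher and 69 lower.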

How the results depend on the processing

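With only the 6 BJ-hTERT arrays at 24 h in the fit, 278 genes were called higher and 419 lower, against 774 and 760 with all arrays, and 0 of the 14 NUTM2 probe sets were called. This fit has fewer samples. Taking each gene's median probe set, 393 were called higher, and the difference between lines was called for 380 genes in place of 821. The difference between times, called for 1 gene, was called for 0 with the 12 BJ-hTERT arrays, with the replicate block, with brighter probe sets, without a filter, with quantile normalization and with arrays centred on their median, for 2 with the median of probe sets, and for 4 with the 60th percentile filter and 4 with an intensity trend and robust moderation; the cause was not tested. Leaving out 1 array gave 538 to 601 genes higher, 592 to 694 lower, 0 to 1 for times, 591 to 766 for lines and 13 to 14 NUTM2 probe sets. Of the 182 called genes named in the text, 107 kept their call in all 17 alternatives and 75 lost it in at least 1, while 0 of their values turned sign. Among all 1534 called genes, 9 turned sign with the median of probe sets and 0 in the other alternatives. Of 1121 list medians compared, 133 moved past 1 SD.

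Whether replicate numbers pair the samples cannot be told from these values. At 24 h, deviations of same-numbered BJ-hTERT arrays from their group means correlated at -0.0004 to 0.034. Those of differently numbered ones correlated at -0.042 to 0.0095. At 72 h same-numbered arrays correlated at 0.027, 0.026 and 0.086, and differently numbered ones at 0.022 at most. All are small, and deviations from group means must balance around 0. With the replicate block 593 genes were called higher, 650 lower, 560 for the difference between lines, and 7 NUTM2 probe sets. The share of called genes that were higher was 50.5%, 44.6% with arrays centred on their median and 39.9% with the 6 arrays alone.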
